A study of Mus musculus with 6 samples.

Results

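The 10 Wnt ligand genes described here are Wnt2, Wnt2b, Wnt3a, Wnt4, Wnt5a, Wnt5b, Wnt6, Wnt7b, Wnt9a and Wnt11. They were taken by symbol from a deposited count table of 23478 genes, which also holds 9 other Wnt ligand genes. All 10 passed the filter on low counts, as did 19375 genes in all. RNA was measured in muscle and in epithelium of the mouse trachea at embryonic day 13.5, with 3 libraries per population. Embryos of both populations were Bmp4 f/f with gamma SMA eGFP, a fluorescent reporter of gamma smooth muscle actin. The titles call all 6 libraries controls, and the labels name no Cre driver. Muscle was collected by GFP and epithelium by an antibody to Epcam, a surface protein of epithelial cells. The labels do not say how many embryos made up a library, so p-values measure the spread between these libraries, which may be technical in part.

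Wnt ligands are secreted, lipid-modified glycoproteins that act over short distances. A ligand binds a Frizzled receptor together with a co-receptor, and either stabilises beta-catenin (Wnt7b, Wnt2, Wnt2b and Wnt3a are known mainly for this) or acts on cell shape and movement without it (Wnt5a, Wnt5b and Wnt11). In the embryonic airway, ligands made by the epithelium reach the surrounding mesenchyme and the reverse also occurs, so which population carries the RNA of each ligand is the first question of the comparison.

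What the ligands share is a serine that the acyltransferase Porcn modifies with a lipid, without which a Wnt protein is neither secreted nor active. The coding bases around that serine were read from GENCODE M21 transcripts (GRCm38) and are shown because they are the common feature of the family. Each run covers 30 bases of the sense strand, 5′ to 3′, with the serine codon in capitals.
Wnt7b: tgtaagtgtcacggtgtgTCAggctcctgt
Wnt4: tgcaagtgtcacggggtgTCGggctcctgc
Wnt6: tgtaagtgccatgggcttTCGggttcctgc
Wnt2: tgcaagtgtcatggtgtgAGTggctcctgt
Wnt2b: tgcaagtgtcacggtgtgAGTggctcctgt
Wnt5a: tgtaagtgtcatggagtgTCTggctcctgt
Wnt5b: tgcaaatgtcacggagtcTCCgggtcctgc
Wnt11: tgtaaatgccatggggtgTCTggctcctgc
Wnt9a: tgcaaatgccatggtgtgTCTggctcctgc
Wnt3a: tgcaaatgccacgggctaTCTggcagctgt

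In these runs 16 of 30 positions carried the same base in all 10 genes. Over the 45 pairs of genes, between 19 and 29 bases were identical, with a median of 24. Wnt2 and Wnt2b were the closest pair with 29 identical bases. Their serine codon is AGT, while the other members use codons that begin with TC. In Wnt7b the run lies in exon 4 of 4 at chr15:85537812-85537841 (minus strand), and the serine is codon 213 of 356. In Wnt4 it lies in exon 5 of 5 at chr4:137296339-137296368 (plus strand), and the serine is codon 212 of 351.

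Library totals ranged from 11847432 to 54848820 counts. All 9 smooth muscle markers were higher in muscle and all 10 epithelial markers in epithelium (edgeR, adjusted p under 0.05). As groups, the sorted populations thus matched their labels. The lists hold Actg2, which encodes gamma smooth muscle actin, and Epcam, so part of this match follows from the sort itself. Relative to their own population, the median epithelial marker stood at 0.221%, 0.738% and 0.687% in muscle replicates 1 to 3. The median smooth muscle marker stood at 0.373%, 1.97% and 0.599% in epithelium replicates 1 to 3. Markers of fibroblast mesenchyme were present in muscle, with a summed level of 4549 to 6696 CPM (counts scaled to a common library size) against 180 to 1429 CPM in epithelium, and 5 of its 6 genes were higher in muscle. The median fibroblast marker stood at 4.66%, 26.2% and 4.29% of its muscle mean in epithelium replicates 1 to 3, so epithelium replicate 2 held the most. The muscle libraries were not alike in smooth muscle markers, which summed to 16580, 4080 and 17450 CPM in replicates 1 to 3. In muscle replicate 2 that sum was under the 5799 CPM of its fibroblast mesenchyme markers. Of the 6 chondrogenic markers 2 were higher in muscle (summed 652 to 1129 CPM, against 222 to 465 CPM in epithelium), and Acan, Matn1 and Comp were at 0 in some library. Of the 6 endothelial markers none was called, with summed levels of 39.2 to 58.0 CPM in muscle and 1.17 to 49.5 CPM in epithelium. Cdh5, Tie1 and Emcn were at 0 in some library. Of the 6 erythroid markers 3 passed the filter on low counts, and neither these nor the immune, neural and glial and mesothelial markers were called. The part of these cells in the values of each ligand was not tested, and fewer cells of a type cannot be told apart from less RNA per cell.

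Muscle replicate 2 and epithelium replicates 2 and 3 stood apart from the other 3 libraries. Counts of 1449 olfactory and vomeronasal receptor genes, which belong to sensory neurons, summed to 871, 1792 and 627 CPM there by library total, against 36.5 CPM or less in the others. The 95th percentile of a receptor gene was 2.18, 4.44 and 1.47 CPM in those libraries and 0.127 CPM or less in the others. A ligand under that level is not told apart from such counts in that library. For Wnt2, Wnt2b, Wnt4, Wnt6 and Wnt7b the log2 fold change of muscle over epithelium without these libraries is given with the gene. That fit leaves epithelium replicate 1 alone in its group. In it the change shrank to 0.14 for Wnt5b and 0.17 for Wnt11, from 1.00 and 0.81 with all libraries. For Wnt5a it was 0.83 (0.86 with all libraries) and for Wnt9a 2.07 (1.64).

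Of the 10 ligand genes, 2 differed between muscle and epithelium, Wnt7b and Wnt4, and both were higher in epithelium (edgeR quasi-likelihood test, Benjamini-Hochberg adjusted p under 0.05 over all genes tested). None was called toward muscle by the main edgeR fit, while DESeq2 called Wnt2 in that direction and limma-voom Wnt2 and Wnt9a. Some alternative edgeR fits also called ligands toward muscle, such as Wnt2, Wnt5a and Wnt9a without muscle replicate 2. Of all genes tested, 10.7% were called, with 4.11% toward epithelium and 6.58% toward muscle. At an unadjusted p under 0.05, 5 of the 10 ligand genes were found, against 21.7% of all genes tested. The fitted change pointed to muscle in 6 ligand genes and to epithelium in 4, and the median log2 fold change of muscle over epithelium was 0.84, against -0.10 over all genes tested. In scaled CPM, the groups did not overlap in 4 ligand genes with muscle above and in 3 with epithelium above, where 16.4% and 10.5% of all genes tested did so (26.9% in either direction). For Wnt5b and Wnt9a, counted among those with muscle above, this depended on the scaling. In CPM by library total the groups of both overlapped.

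**Figure D1:**
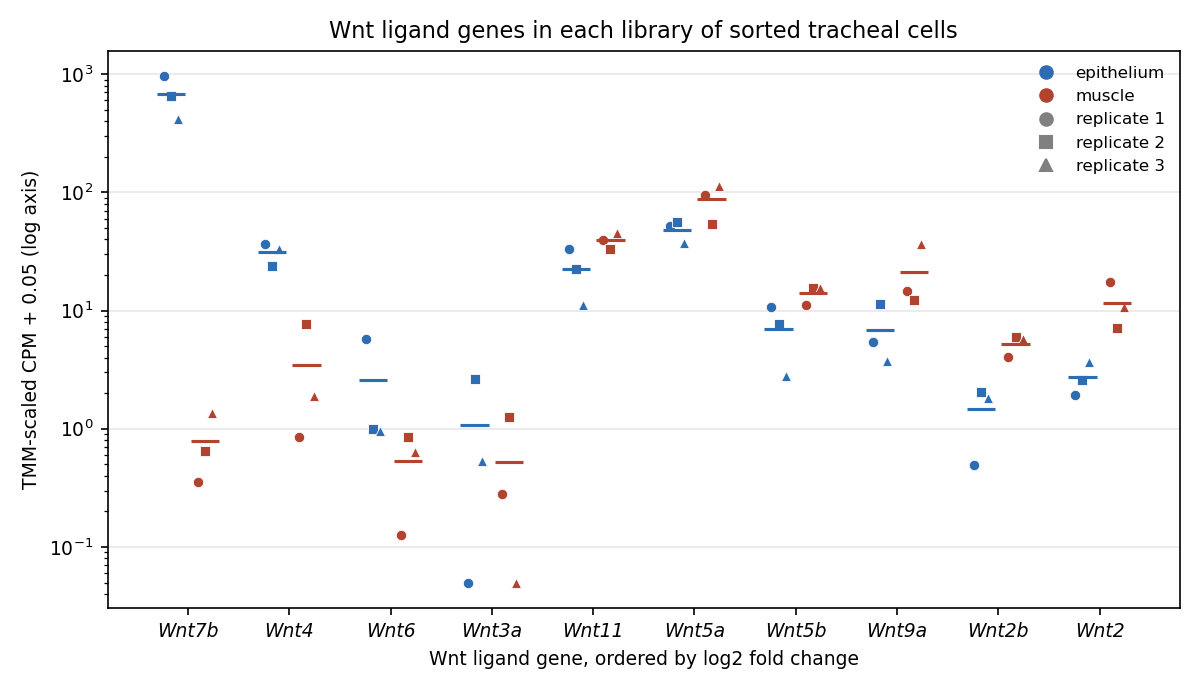
TMM-scaled CPM plus 0.05 on a log axis for the 10 Wnt ligand genes, ordered by log2 fold change, in each of 3 epithelial (blue) and 3 muscle (red) libraries. Symbols mark the replicate and bars the group mean. Wnt7b sits at 421 to 963 CPM in epithelium and at 0.304 to 1.31 CPM in muscle, while the other genes lie within a narrower range.

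Wnt7b, a ligand of the airway epithelium that is known to act on the adjacent mesenchyme, lies at chr15:85535437-85582473 on the minus strand of GRCm38. Its level was 963, 652 and 421 CPM in epithelium replicates 1 to 3 and 0.304, 0.599 and 1.31 CPM in muscle replicates 1 to 3. Every epithelial library was thus far above every muscle library. The log2 fold change was -9.77 ± 0.66 (SE, 95% interval -11.27 to -8.28, adjusted p = 9.6e-05, edgeR). In muscle its level came to 0.0448%, 0.0883% and 0.194% of the epithelial mean, below the 0.221% to 0.738% at which the median epithelial marker stood in the same libraries. The call was made in all 17 alternative fits, at log2 fold changes from -10.56 to -9.40. In muscle replicate 2 the 0.679 CPM of Wnt7b by library total was under the 2.18 CPM of the 95th percentile of receptor genes. Without the 3 libraries rich in receptor counts, which leaves epithelium replicate 1 alone in its group, the log2 fold change was -10.31. The antisense gene AU022754 shares 324 bases with Wnt7b exons. The library kit is not known to keep strand. AU022754 had between 39 and 110 counts in epithelium, against 9757 to 51826 for Wnt7b. In muscle replicates 1 to 3 it had 0, 26 and 0 counts, against 8, 12 and 52 for Wnt7b. The part of reads from the shared bases in the counts of either gene was not tested. Wnt5a and Wnt11 also share 358 and 364 exon bases with a gene on the opposite strand (Gm2670, and the pseudogene Gm8398), for which no counts were used here.

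Wnt4, best known from the forming kidney tubule and the female reproductive tract, lies at chr4:137277489-137299726 on the plus strand. Its level was 36.6, 23.6 and 33.1 CPM in epithelium replicates 1 to 3 and 0.798, 7.69 and 1.85 CPM in muscle replicates 1 to 3. The groups did not overlap, and muscle replicate 2 was the highest of the muscle libraries. The fitted log2 fold change was -3.19 ± 0.73 (SE, 95% interval -4.84 to -1.54, adjusted p = 0.0237, edgeR). Muscle replicate 2 reached 24.7% of the epithelial mean of Wnt4, against 2.57% and 5.94% in replicates 1 and 3 and a median epithelial marker of 0.738% in that library. By library total its 8.71 CPM was above the 2.18 CPM of the 95th percentile of receptor genes. Without muscle replicate 2 the log2 fold change was -4.52 (adjusted p = 0.00037), and without the 3 libraries rich in receptor counts it was -4.95 (adjusted p = 0.0027). The latter fit has epithelium replicate 1 alone in its group, which is assumed to vary like the muscle libraries. In 6 of 17 alternative fits the call was lost (highest adjusted p 0.10). Among these were the fits without muscle replicate 3, without epithelium replicate 1, 2 or 3 (0.0582, 0.0507 and 0.0822) and with library totals alone.

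Wnt6, known from ectodermal and other epithelia, lies at chr1:74771892-74785322 on the plus strand. It had 5.72 CPM in epithelium replicate 1 and 0.936 and 0.901 CPM in replicates 2 and 3, against 0.0760, 0.799 and 0.581 CPM in muscle replicates 1 to 3. The groups did not overlap, but the gap between the lowest epithelial and the highest muscle library was small and epithelium replicate 1 stood far above the rest. Its log2 fold change of -2.37 ± 1.68 (SE, 95% interval -6.18 to 1.44) did not pass the threshold (adjusted p = 0.56, edgeR). Wnt6 was above the 95th percentile of receptor genes only in muscle replicate 3 and epithelium replicate 1. Without the 3 libraries rich in receptor counts, which leaves epithelium replicate 1 alone in its group, the log2 fold change was -4.24 (adjusted p = 0.0428). In that fit the lone library is assumed to vary like the muscle libraries.

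Wnt2 and Wnt2b are known to act together in setting up the respiratory lineage of the foregut, from the mesenchyme around it. Wnt2, at chr6:17988940-18030585 on the minus strand, had 17.2, 7.04 and 10.6 CPM in muscle replicates 1 to 3 and 1.88, 2.54 and 3.64 CPM in epithelium replicates 1 to 3. Every muscle library was above every epithelial one. The log2 fold change of 2.11 ± 0.58 (SE, 95% interval 0.80 to 3.42) fell just short of the threshold (adjusted p = 0.0502, edgeR). It was past the threshold in 6 of 17 alternative fits, and the adjusted p ranged from 0.0026 with DESeq2 to 0.39 without muscle replicate 1. Without muscle replicate 2 the log2 fold change was 2.38 (adjusted p = 0.0247, edgeR). In the epithelial libraries Wnt2 stood at 16.2%, 21.9% and 31.4% of its muscle mean. The median smooth muscle marker there stood at 0.373%, 1.97% and 0.599%, and the median fibroblast mesenchyme marker at 4.66%, 26.2% and 4.29%, which in replicate 2 is above Wnt2. The part of such cells in the epithelial level of Wnt2 was not tested.

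Wnt2b, at chr3:104945272-104961921 on the minus strand, had 4.03, 5.89 and 5.71 CPM in muscle replicates 1 to 3 and 0.446, 2.00 and 1.77 CPM in epithelium replicates 1 to 3. The groups again did not overlap. Its fitted log2 fold change was 1.89 ± 0.98 (SE, 95% interval -0.33 to 4.11, adjusted p = 0.33, edgeR), so a difference in either direction is within the interval. In epithelium replicate 2 both Wnt2 and Wnt2b were under the 95th percentile of receptor genes. Without the 3 libraries rich in receptor counts, again with epithelium replicate 1 alone, the log2 fold change was 2.70 for Wnt2 and 3.26 for Wnt2b.

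Wnt5a, a ligand of the Ror receptors that is known for the outgrowth of the body axis and the airway, lies at chr14:28504750-28527448 on the plus strand. It had 95.6, 53.6 and 113.9 CPM in muscle replicates 1 to 3 and 51.9, 56.3 and 37.1 CPM in epithelium replicates 1 to 3. Muscle replicates 1 and 3 were above all epithelial libraries, while muscle replicate 2 lay under epithelium replicate 2. The log2 fold change of 0.86 ± 0.32 (SE, 95% interval 0.14 to 1.58) did not pass the threshold (adjusted p = 0.14, edgeR). Without muscle replicate 2 it was 1.12 (adjusted p = 0.0209). That library also had the lowest summed level of smooth muscle markers, 4080 CPM against 16580 and 17450 CPM in the other muscle libraries. It was also rich in receptor counts and carries an earlier date in the file header. These traits cannot be told apart here, and the part of each in the Wnt5a level was not tested.

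Wnt5b, the close relative of Wnt5a that is known from cartilage, lies at chr6:119432531-119544347 on the minus strand. It had 11.1, 15.4 and 15.5 CPM in muscle replicates 1 to 3 and 10.6, 7.62 and 2.74 CPM in epithelium replicates 1 to 3. The groups met almost end to end, at 11.1 and 10.6 CPM. By library total they overlapped, with 10.41 and 9.622 CPM in epithelium replicates 1 and 2 against 9.305 CPM in muscle replicate 1. Muscle and epithelium differed by 1.00 ± 0.50 on the log2 scale (SE, 95% interval -0.14 to 2.14, adjusted p = 0.31, edgeR), and no alternative fit passed the threshold.

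Wnt11, known for directing cell movements and the branching of the ureteric bud, lies at chr7:98835112-98855195 on the plus strand. It had 39.6, 32.9 and 45.0 CPM in muscle replicates 1 to 3 and 33.0, 22.5 and 11.2 CPM in epithelium replicates 1 to 3. Muscle replicate 2 and epithelium replicate 1 were nearly equal, so the groups overlapped. The log2 fold change was 0.81 ± 0.37 (SE, 95% interval -0.03 to 1.66, adjusted p = 0.25, edgeR), and no alternative fit passed the threshold. Wnt5a, Wnt5b and Wnt11 thus had levels in epithelium of 55.2%, 49.9% and 56.8% of their own muscle means. All 6 libraries were above the receptor gene level for each of them. The epithelial libraries were not alike, with 75.8%, 54.4% and 19.6% for Wnt5b and 84.4%, 57.5% and 28.6% for Wnt11 in replicates 1 to 3. Without epithelium replicate 3 the log2 fold change was 0.50 for Wnt5b and 0.37 for Wnt11. Without epithelium replicate 1 it was 1.46 and 1.24.

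Wnt9a, known from the forming joints, lies at chr11:59306928-59333552 on the plus strand. It had 14.5, 12.3 and 36.3 CPM in muscle replicates 1 to 3 and 5.33, 11.3 and 3.72 CPM in epithelium replicates 1 to 3. On this scale the groups did not overlap, and muscle replicate 3 stood well above the other muscle libraries. By library total the groups overlapped, with 14.26 CPM in epithelium replicate 2 against 12.17 and 13.91 CPM in muscle replicates 1 and 2. The log2 fold change of 1.64 ± 0.55 (SE, 95% interval 0.39 to 2.90) did not pass the threshold (adjusted p = 0.11, edgeR). It passed in 4 of 17 alternative fits, among them those without epithelium replicate 2 (2.13, adjusted p = 0.0424) and without muscle replicate 2 (1.93, adjusted p = 0.0496).

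Wnt3a, a ligand known from the formation of the trunk mesoderm, lies at chr11:59248033-59290752 on the minus strand. It had 6, 24 and 0 counts in muscle replicates 1 to 3 and 0, 39 and 13 counts in epithelium replicates 1 to 3. It was highest in the libraries rich in receptor counts and was above the 95th percentile of receptor genes only in muscle replicate 1. Its log2 fold change was -1.11 ± 2.53 (SE, 95% interval -6.83 to 4.61, adjusted p = 0.93, edgeR), and its sign turned with limma-voom and without epithelium replicate 2. The libraries of each population disagreed, and the interval holds differences in either direction.

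**Figure D2:**
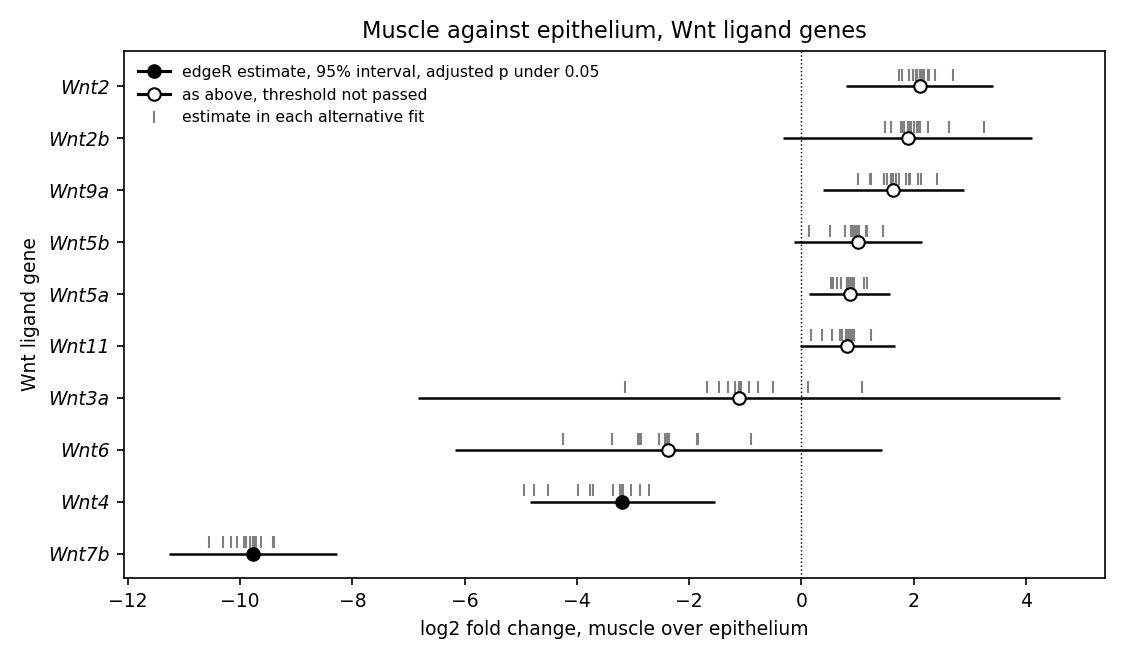
Log2 fold change of muscle over epithelium (horizontal axis) for each Wnt ligand gene, with the edgeR estimate and its 95% interval; filled circles have an adjusted p under 0.05 and grey ticks show the estimate in each alternative fit. Wnt7b at -9.77 and Wnt4 at -3.19 are filled, and the ticks of Wnt3a lie on both sides of 0.

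The ligands were then ordered within each population by CPM per kilobase of the longest coding transcript, a scale on which genes can be compared. In epithelium Wnt7b came first with 199.6 ± 80.05 CPM per kilobase (SD, n = 3), and its lowest library (123.8) was far above the highest of the next gene, Wnt4 (8.72). Wnt4 (7.41 ± 1.60 CPM per kilobase), Wnt5a (6.91 ± 1.43) and Wnt11 (6.45 ± 3.17) followed with ranges that overlapped. Their order depends on the length: in CPM not divided by a length, Wnt5a (mean 48.4) was above Wnt4 (mean 31.1) in epithelium. Below them were Wnt5b (2.95 ± 1.68 CPM per kilobase) and Wnt9a (2.04 ± 1.202), again with overlapping ranges, and then Wnt6, Wnt2, Wnt2b and Wnt3a, with means of 1.22 CPM per kilobase or less. In muscle Wnt5a (12.5 ± 4.41 CPM per kilobase, SD, n = 3) and Wnt11 (11.4 ± 1.76) led, and their ranges overlapped. Wnt9a (6.34 ± 4.001 CPM per kilobase), Wnt5b (5.90 ± 1.06) and Wnt2 (5.15 ± 2.29) were not separated from one another by their ranges. The lowest library of Wnt2 (3.12 CPM per kilobase) was above the highest of the next gene, Wnt2b (1.775). Wnt4, Wnt6, Wnt7b and Wnt3a had means of 0.821 CPM per kilobase or less in muscle.

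The composition of the ligand RNA followed from these levels. Summed over all 19 Wnt ligand genes, the level was 320.1, 230.2 and 151.7 CPM per kilobase in epithelium replicates 1 to 3 and 43.7, 44.6 and 54.7 in muscle replicates 1 to 3. Wnt7b made up 88.5%, 83.3% and 81.6% of that sum in epithelium replicates 1 to 3 and under 1% in each muscle library. Without Wnt7b the sums were 36.8, 38.4 and 27.9 CPM per kilobase in epithelium and 43.65, 44.4 and 54.4 in muscle. In muscle no gene held as large a share as Wnt7b in epithelium. There Wnt5a made up 26.0% ± 7.70 (SD, n = 3), Wnt11 23.8% ± 2.46, Wnt9a 12.8% ± 6.32, Wnt5b 12.4% ± 1.96 and Wnt2 11.0% ± 5.64 of the summed CPM per kilobase. Of the ligand sum without Wnt7b, Wnt4 held 22.2% ± 6.96 in epithelium and 1.79% ± 2.03 in muscle, and Wnt5a held 20.01% ± 0.962 and 26.1% ± 7.74. These shares depend on the length used: per kilobase of coding sequence Wnt5a made up 43.2% in muscle, Wnt5b 7.28% and Wnt2 6.21%.

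**Figure D3:**
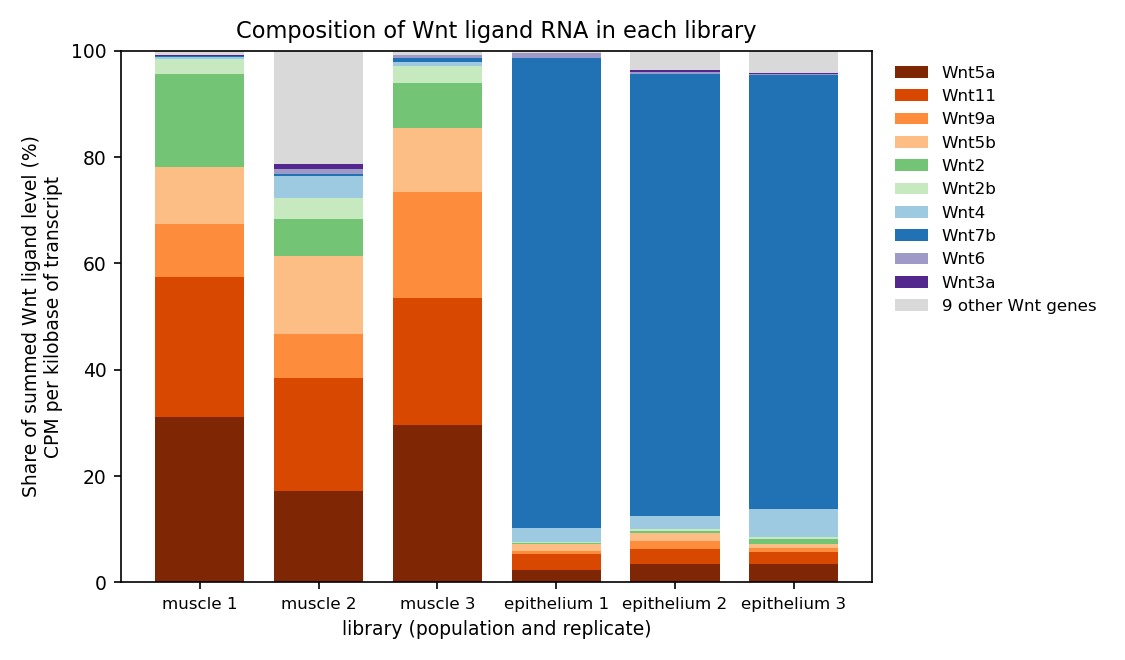
Share (%) of each Wnt ligand gene in the summed CPM per kilobase of transcript of all 19 Wnt ligand genes, stacked to 100% for each of the 6 libraries. Wnt7b fills 81.6% to 88.5% of the epithelial bars, and the grey part for the 9 other Wnt genes is 21.35% in muscle replicate 2 and 4.21% or less in the other libraries.

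The other 9 Wnt ligand genes of the table (Wnt1, Wnt3, Wnt7a, Wnt8a, Wnt8b, Wnt9b, Wnt10a, Wnt10b and Wnt16) gave no call, and none had an unadjusted p under 0.05 (edgeR). Their summed level was 28.3, 24.0 and 19.6 CPM in muscle replicate 2 and epithelium replicates 2 and 3, the libraries rich in receptor counts, and 0.988, 1.24 and 3.38 CPM in muscle replicates 1 and 3 and epithelium replicate 1. Single values ranged from 0 to 8.84 CPM, the highest being Wnt8b in muscle replicate 2. Wnt7a, the nearest relative of Wnt7b, had 0.595, 2.47 and 2.22 CPM in epithelium replicates 1 to 3 and 0.0760, 3.10 and 0.101 CPM in muscle replicates 1 to 3. Its groups overlapped through muscle replicate 2, a library rich in receptor counts, while muscle replicates 1 and 3 were under every epithelial library. Wnt7a was above the 95th percentile of receptor genes only in muscle replicate 2 and epithelium replicates 1 and 3.

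Genes with a like pattern over the 6 libraries were ranked by the root mean square difference of log2 CPM, each gene centred on its own mean. For Wnt7b the nearest 3 of 9370 genes were Epcam (0.775), Cldn6 (0.825) and Foxa2 (0.826), against a median of 5.12 over all genes compared. Epcam is the surface protein used for the sort, Cldn6 encodes a tight junction protein and Foxa2 an endoderm transcription factor. For Wnt2, the ligand with the largest edgeR change toward muscle over all 6 libraries (Wnt2b or Wnt9a was larger in some alternative fits), they were Tacc1 (0.164), Anxa6 (0.287) and Vcam1 (0.305) of 9371 genes, against a median of 1.07. Tacc1 encodes a centrosome protein, Anxa6 a calcium-dependent membrane-binding protein and Vcam1 a cell adhesion molecule. Since these genes were chosen for their likeness over the same libraries, their difference between the populations is not an added result.

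The genes that make, receive and restrain Wnt ligands were counted next. The test covered 62 such genes and called 13 toward muscle and 2 toward epithelium (edgeR, adjusted p under 0.05), where 6.58% and 4.11% of all genes tested were called. None of the 9 genes of lipidation and secretion was called, and 2 had an unadjusted p under 0.05. Porcn, the acyltransferase of the serine shown above, had a mean of 21.3 ± 4.26 CPM in muscle and of 14.2 ± 2.12 CPM in epithelium (SD, n = 3; log2 fold change 0.58 ± 0.28, SE, 95% interval -0.06 to 1.22, adjusted p = 0.29).

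Of the 10 Frizzled receptor genes, 1 was higher in epithelium, Fzd6, and none in muscle. Fzd6 had 2.66, 8.49 and 5.38 CPM in muscle replicates 1 to 3 and 51.4, 41.5 and 38.0 CPM in epithelium replicates 1 to 3, with a log2 fold change of -2.99 ± 0.41 (SE, adjusted p = 0.0023, edgeR). It was called in all 17 alternative fits. Fzd1 and Fzd10, which are known to respond to Wnt7b in the lung, did not pass the threshold. The mean of Fzd1 was 208.1 ± 96.5 CPM in muscle and 97.3 ± 21.7 CPM in epithelium (SD, n = 3; adjusted p = 0.0922, edgeR), and that of Fzd10 0.877 ± 0.928 and 2.97 ± 0.265 CPM (adjusted p = 0.63).

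Co-receptors and alternative receptors gave 6 calls toward muscle among 12 genes, and no call toward epithelium. Gpr124 (Adgra2) and Reck, which together form a co-receptor for Wnt7a and Wnt7b in brain vessels, were among them. Gpr124 had 49.8, 47.1 and 74.2 CPM in muscle replicates 1 to 3 and 1.62, 11.6 and 3.27 CPM in epithelium replicates 1 to 3, a log2 fold change of 3.41 ± 0.66 (SE, adjusted p = 0.0113, edgeR). Reck had 77.9, 57.5 and 132.8 CPM in muscle and 24.7, 30.4 and 17.4 CPM in epithelium, a log2 fold change of 1.89 ± 0.36 (SE, adjusted p = 0.0103). Both sets of libraries were without overlap, so the RNA of these co-receptor genes and that of Wnt7b were highest in opposite populations. Ror2, the receptor tyrosine kinase that binds Wnt5a, averaged 98.7 ± 67.4 CPM in muscle and 16.15 ± 6.79 CPM in epithelium (SD, n = 3), and differed by 2.61 ± 0.55 on the log2 scale (SE, adjusted p = 0.0164). The glypican genes Gpc3 (1.36, adjusted p = 0.0052), Gpc4 (1.05, adjusted p = 0.0171) and Gpc6 (1.44, adjusted p = 0.0044), whose products hold Wnt proteins at the cell surface, were also higher in muscle. Without epithelium replicate 3, Gpr124 (adjusted p = 0.0634), Reck (0.0507), Ror2 (0.0592) and Gpc3 (0.0546) lost their call, and Gpc4 lost it in 5 of 17 alternative fits, at up to 0.21.

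Of 9 genes of the R-spondin module, which sets how many Frizzled receptors stay on the surface, Lgr5 was higher in epithelium (-3.17 ± 0.45, SE, adjusted p = 0.0025, edgeR) and none in muscle. In this list 7 genes had an unadjusted p under 0.05, where 21.7% of all genes tested did. Its median log2 fold change of 1.48 pointed to muscle, against -0.10 over all genes tested. Rspo2, which encodes a secreted R-spondin, had 99.4, 35.0 and 70.3 CPM in muscle replicates 1 to 3 and 3.77, 27.4 and 4.995 CPM in epithelium replicates 1 to 3 (log2 fold change 2.52, adjusted p = 0.0695). Rspo1 (1.48), Rspo3 (1.83), Lgr4 (1.12) and Lgr6 (2.70) also pointed to muscle without passing the threshold (adjusted p of 0.0678 to 0.14). Rnf43 pointed to epithelium, also without passing it (log2 fold change -1.30, adjusted p = 0.23, edgeR). Its mean was 117.8 CPM in epithelium and 47.7 CPM in muscle, and its groups overlapped. Secreted inhibitors gave 4 calls toward muscle among 13 genes, and no call toward epithelium. They were Sfrp1 (3.04, adjusted p = 0.0008), Sfrp2 (3.30, adjusted p = 0.016), Dkk2 (3.13, adjusted p = 0.0377) and Dkk3 (1.66, adjusted p = 0.0454). Of 14 feedback target genes, which beta-catenin signalling is known to switch on in many tissues, 3 were higher in muscle and 1 in epithelium. Those in muscle were Bambi (1.57, adjusted p = 0.0055), Lef1 (1.40, adjusted p = 0.025) and Tcf7 (2.31, adjusted p = 0.0473), and the one in epithelium was Lgr5, counted in both lists. Fzd6, Lgr5, Sfrp1, Gpc6 and Bambi were called in all 17 alternative fits. Dkk3 was called in 5, Tcf7 in 8, Dkk2 in 10, Lef1 in 12 and Sfrp2 in 13 of them, and each of these lost its call without epithelium replicate 3.

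**Figure D4:**
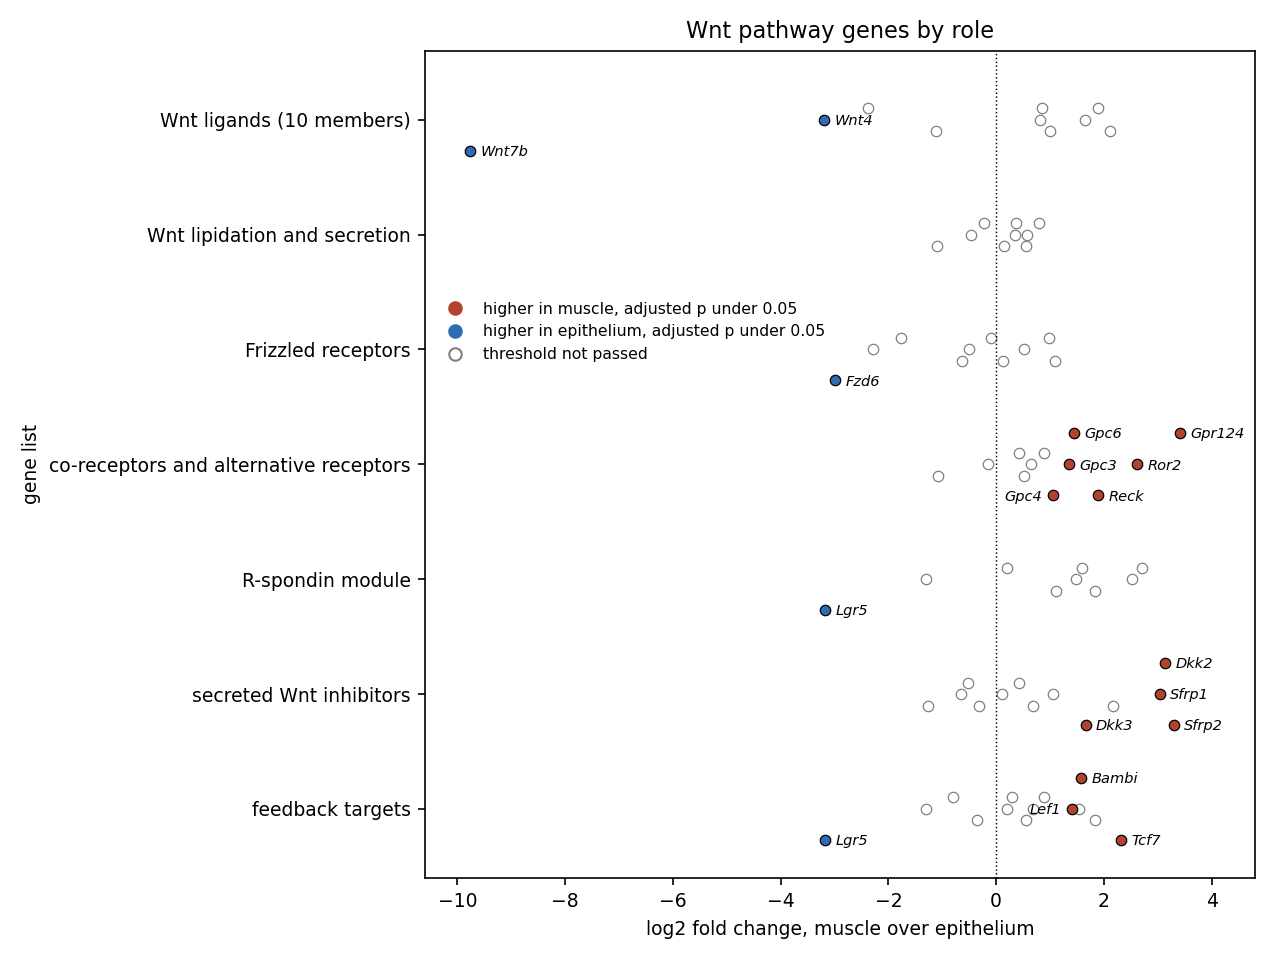
Log2 fold change of muscle over epithelium (horizontal axis) for the 10 Wnt ligand genes and 6 lists of other Wnt pathway genes, with 1 point per gene; filled points have an adjusted p under 0.05 (red, higher in muscle; blue, higher in epithelium) and are named. Wnt7b at -9.77 lies apart from all other points, and 6 of 12 co-receptor and alternative receptor genes are filled on the muscle side.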

How the data were processed

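The deposited table holds raw counts, whole numbers per gene symbol. Trim Galore, Bowtie2, Cufflinks, DESeq and the build mm10 are named in the submitters' processing notes, and the counting program and annotation are not given in the sources used here. Per the labels' protocols, cDNA was made with SMART-Seq v4 and libraries with Nextera XT, which in standard use mark neither molecules nor strand. Counts from 1 to 19 were even in 73.8% to 79.6% of cases per library, so a read pair may count as more than 1.

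Libraries were grouped by title. Counts were filtered (filterByExpr), scaled by TMM and tested with edgeR 4.0.16 (robust quasi-likelihood, two-sided, Benjamini-Hochberg over 19375 genes) in R 4.3.3, after tests on simulated data. CPM values were computed here, and standard errors derive from the test statistic. An exact permutation test of 3 against 3 libraries cannot give a p under 0.1. The 17 alternative fits per ligand gene (15 for Wnt3a) include DESeq2 1.42.0, limma-voom (limma 3.58.1), other scalings and filters, dates read from the file headers, the replicate number as a block and leaving out libraries. Positions, lengths and sequences come from GENCODE M21. 2 symbols were matched through RefSeq synonyms.

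The ligand genes, the other lists and the rules for named genes (all ligand genes, pathway genes past the threshold, the 3 nearest patterns, searched where average log2 CPM reached 4) were chosen with earlier results of these data known. Porcn, Fzd1, Fzd10, Rspo1, Rspo2, Rspo3, Lgr4, Lgr6 and Rnf43 did not pass the threshold and were named outside these rules. Other pathway genes that also missed it were not named.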

Additional observations from a re-analysis of the deposited data

How the results depend on the processing

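Wnt7b was called in every fit, and of the 10 ligand genes Wnt3a alone changed sign (0.12 with limma-voom, and from -3.14 without muscle replicate 2 to 1.07 without epithelium replicate 2). The 2 calls became 1 with library totals, with the replicate block and at an adjusted p under 0.01, 4 with limma-voom, and 5 both with the later header date alone and without the 3 libraries rich in receptor counts. Leaving out 1 library gave 1 to 5 calls, 5 of them without muscle replicate 2. The 2071 genes called became 3549 with DESeq2, 3178 with the header date as a term and 983 at the stricter threshold, and ranged from 1169 (without epithelium replicate 3) to 2573 with 1 library left out. With library totals the median log2 fold change of all genes moved from -0.10 to -0.33 and calls higher in muscle from 1274 to 1041. The header identifiers, read as dates, put both replicates 2 on an earlier date. On the later date alone Wnt7b was at -9.71 (adjusted p = 0.0013) and Wnt4 at -4.77 (0.0025). The earlier date has 1 library per group and allows no test. In muscle, Wnt5a, Wnt5b and Wnt11 made up 44.4%, 7.33% and 20.2% of ligand CPM with no length and 43.2%, 7.28% and 21.1% per coding length. The share of Wnt2 there was 6.05% and 6.21%, against 11.0% per transcript length. Between same-numbered libraries, deviations from the group means correlated at 0.557, 0.748 and -0.59 over 19375 genes for replicates 1 to 3. With 3 libraries per group such deviations depend on one another, so whether replicate numbers pair the libraries is not settled by them. With the replicate block, 2418 genes and 1 ligand gene (Wnt7b) were called, and the adjusted p was 0.0614 for Wnt4, 0.10 for Ror2, 0.0526 for Reck, 0.0574 for Sfrp2, 0.0633 for Dkk3 and 0.0507 for Tcf7. Alternatives for the other pathway genes were chosen after seeing the data. Of their fits 48 lost the call and none changed sign. Wnt3a did not pass the filter on low counts on the later date alone or without the 3 receptor-rich libraries.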
